A study of Macaca mulatta with 30 samples.

Results

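Left and right superior temporal cortex (STC) of the rhesus macaque were compared within animals. The comparison used the 10 arrays labelled as STC left or STC right, 1 of each hemisphere from each of 5 animals, out of 30 arrays in the study. The remaining 20 arrays held left and right ventrolateral prefrontal cortex (VFC) and primary motor cortex (M1C) of the same 5 animals, and served here as a reference for the array check and for the comparison between regions. All tissue was frozen after death, homogenized in TRI reagent and measured as total RNA on biotin-labelled Affymetrix arrays, and the labels name no treatment or genetic change. Animals 1, 2 and 3 were females with labelled ages of 7.3, 5.5 and 8.6, and animals 4 and 5 were males with labelled ages of 4.2 and 2. The labels give no unit for age, and the values were read as years. The animals therefore differed in sex and age, but both hemispheres of a pair came from the same animal, and each array is a single block of tissue.

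The posterior superior temporal cortex lies along the upper bank and lip of the temporal lobe and holds auditory association areas. In the macaque it is regarded as the counterpart of the human area that serves the understanding of speech, and in humans this cortex differs in shape between the hemispheres. A dissected block holds neurons of all cortical layers, glia, vessels and, at its outer surface, pia and arachnoid, the thin meninges whose fibroblasts secrete collagens and small proteoglycans.

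The deposited values were log2 intensities, so a difference of 1 is a doubling, and levels of different probe sets cannot be set against each other. The level of a probe set is given on this log2 scale throughout, and lists of 5 values run from animal 1 to animal 5. Differences are left minus right within an animal, averaged over 5 animals, with the moderated standard error (SE) from limma, and p-values are two-sided. Arrays give no read depth, and the number of animals limits the precision. Over the 10 arrays NRGN, the calmodulin-binding neurogranin of excitatory neurons, read between 10.89 and 11.21, and SYN1, the vesicle protein synapsin I, between 11.10 and 11.43. These levels do not measure the share of neurons in a block. Of the blood markers sought, HBB, HBG2, ALAS2, SLC4A1, S100A8 and S100A12 lay below the filter on low values, and S100A9 alone was tested, with 6.36 to 6.63 on the left and 6.12 to 6.51 on the right.

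The right STC array of animal 4 went against its label, and that of animal 3 was ambiguous. The array labelled STC right of animal 4 carried a motor cortex profile. MET, a receptor tyrosine kinase of cortical projection neurons, read 6.64 on it and at least 8.60 on the other 9 STC arrays. EPHA3, an ephrin receptor, read 7.58 there and at least 8.74 on the others. In the opposite direction SYT2, the fast calcium sensor of vesicle release, read 10.14 there and at most 9.12 on the others, and CNDP1, a carnosine dipeptidase, read 9.64 against at most 8.64. MET, EPHA3 and SYT2 were chosen as genes that separate STC from M1C in animals 1, 2 and 5, as was CNDP1.

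Over all tested probe sets each array was placed on a line from the M1C mean, set to 0, to the STC mean, set to 1, both taken from animals 1, 2 and 5 without the array's own animal. The right STC array of animal 4 lay at -0.056 and that of animal 3 at 0.587, while the other 8 STC arrays lay between 0.495 and 0.922. The M1C arrays of animals 1 to 4 lay between -0.125 and 0.0766, leaving out the left one of animal 3. That array lay at 0.836 and thus among the STC arrays and also among the VFC arrays. The VFC arrays lay between 0.408 and 0.963 on the left and between 0.524 and 0.885 on the right. The line therefore did not separate STC from VFC. The M1C arrays of animal 5 lay at 0.693 and 0.459, so the line did not separate the regions in that animal.

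The Y-linked translation factor EIF1AY checked the animals' sex against the labels. It read 7.25 on the right STC array of the male animal 4, where the left array read 8.33. On the right STC array of the female animal 3 it read 7.87, where the left array read 7.32. The 12 arrays of the females 1 and 2 lay between 6.83 and 7.70, and the 6 arrays of the male 5 between 8.30 and 8.53. The right STC array of animal 4 thus read like the females, and that of animal 3 lay between the groups. The M1C left array of the female animal 3 read 8.34, within the male range, and thus went against its label as well.

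As a description, the deviations of an array from its group mean were correlated over 24292 probe sets with those of arrays of the other groups, which share a normalization. The right STC array of animal 4 had a mean correlation of 0.225 with arrays of animal 3 and of 0.0866 with arrays of its own animal. That of animal 3 had 0.165 with its own animal and 0.142 with animal 4. The other 8 STC arrays had 0.169 to 0.497 with their own animal and at most 0.0825 with any other. The VFC left array of animal 4, whose label was also doubted, had 0.20 with its own animal and 0.127 with animal 3. The VFC right array of animal 4 had 0.19 with its own animal. On the doubted VFC array EIF1AY read 8.29, close to the male animal 5, and its place of 0.655 lay among the VFC arrays. Because of the right STC arrays of animals 3 and 4, results are given for all 5 animals and for animals 1, 2 and 5. The STC arrays of these animals matched their labels in sex and in their own animal. Those of animals 1 and 2 also lay apart from the M1C arrays of the same animals. Whether they were STC or VFC could not be told from the line. For animal 5 the line could not check the region, since its M1C arrays lay near its STC arrays.

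**Figure D1:**
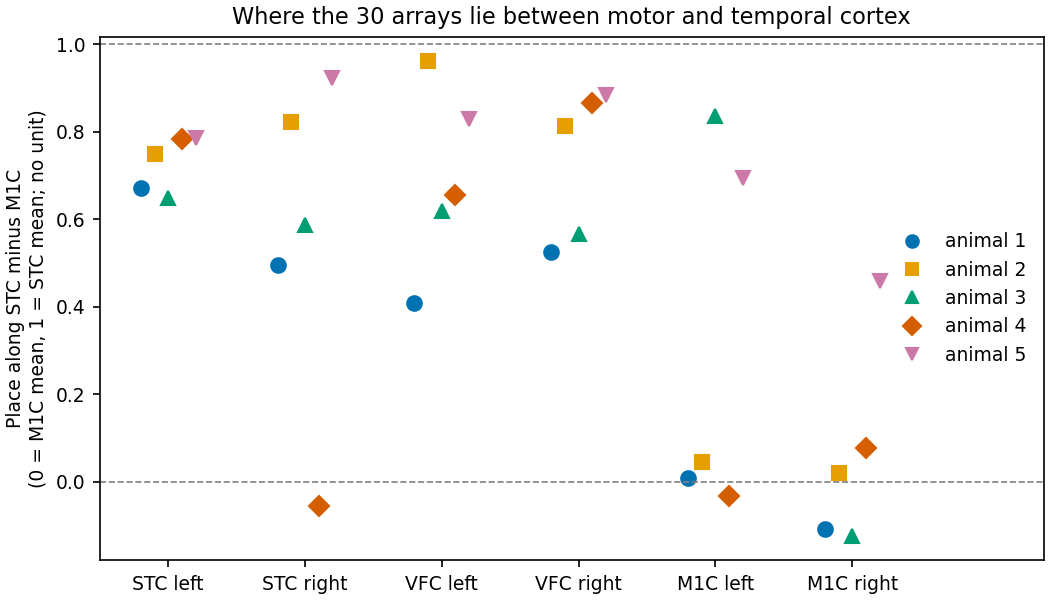
Place of each array on the line from the M1C mean (0) to the STC mean (1), without units, by region and hemisphere, with points for single arrays. The STC right array of animal 4 lies at -0.056, among M1C arrays. The M1C left array of animal 3 lies at 0.836, among both STC and VFC arrays, which the line does not separate.

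No probe set passed an adjusted p of 0.05 between left and right STC. With limma on the 5 within-animal differences and Benjamini-Hochberg adjustment, 0 of 24292 tested probe sets (0%) were called, and the smallest adjusted p was 0.308. At an unadjusted p under 0.05 there were 1076 probe sets (4.43%), of which 651 (2.68%) read higher and 425 (1.75%) lower on the left. With animals 1, 2 and 5 alone, 0 probe sets (0%) were called, 854 (3.52%) had an unadjusted p under 0.05, and the smallest adjusted p was 0.0934. It was shared by a pair of probe sets without a gene name, and neither kept its size in the other animals: the first read 1.29 higher on the left in animals 1, 2 and 5, and 0.24 and -0.74 in animals 3 and 4. The second read -1.25 in animals 1, 2 and 5, and 1.03 and 1.00 in animals 3 and 4.

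**Figure D2:**
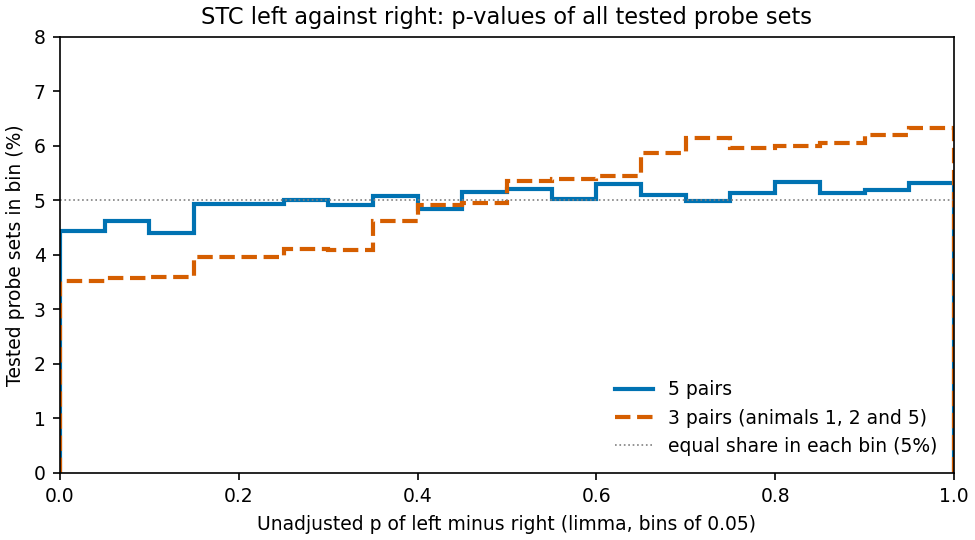
Share of the 24292 tested probe sets (percent) in each interval of unadjusted p-value for left against right STC, over 5 pairs and over the pairs of animals 1, 2 and 5. The lowest interval, p under 0.05, holds 4.43% with 5 pairs and 3.52% with 3 pairs.

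The differences were small. The median size of the mean difference was 0.0555 on the log2 scale, 94.4% of probe sets lay under 0.2, 62 reached 0.5 and 4 reached 1. The animals did not share a pattern over all probe sets: among the 10 pairs of animals the correlation of the left minus right profiles ranged from -0.167 to 0.142, with a median of 0.001 and 5 pairs above 0. The pair of animal 4 had the widest spread of differences, with a standard deviation (SD) of 0.287 and 210 probe sets differing by at least 1, against SDs of 0.207 to 0.254 and 34 to 95 probe sets in the others. Its differences correlated at 0.463 with the STC minus M1C differences of animals 1, 2 and 5, whereas those of the other 4 animals correlated between -0.130 and 0.135. The same direction in 5 of 5 animals was found for 1346 probe sets (5.54%), 830 (3.42%) higher and 516 (2.12%) lower on the left. By gene, 355 of 11443 (3.10%) were higher and 281 (2.46%) lower on the left in 5 of 5 animals.

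The genes that read lower on the left included genes of extracellular matrix and of the meninges. The 12 with the smallest p among those lower in every animal were C7, MPZL2, MGP, LUM, KCNJ13, FBLN5, MAMU-DQB1, GJB2, PROS1, FRZB, LYZ and IFITM1. They were chosen for this direction and for their p, so their values describe them and support nothing further. C7, a component of the complement membrane attack complex, read lower on the left by 0.92 on the log2 scale, and the meningeal matrix genes MGP, LUM and OGN read 1.53, 1.59 and 2.10 times as high on the right as on the left. In bulk tissue fewer cells of a type and less RNA per cell cannot be told apart.

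C7 read 5.93, 6.43, 6.10, 5.56 and 5.68 on the left and 6.57, 7.46, 6.86, 6.39 and 7.05 on the right. Each right array exceeded its left partner, while the groups overlapped narrowly, since the left array of animal 2 lay just above the right array of animal 4. The difference was -0.92 ± 0.10 (SE, n = 5, adjusted p = 0.308), and -1.01 ± 0.14 over animals 1, 2 and 5. The left mean of 5.94 lay under the filter level of 6.04, so the level on the left was low and the size of the difference is uncertain.

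MGP, the matrix Gla protein that inhibits calcification, read 7.77, 7.81, 7.98, 7.75 and 8.94 on the left and 8.52, 8.59, 8.26, 8.80 and 9.16 on the right. Animal 5 was the highest in both hemispheres, and its left array alone overlapped the right group. The difference was -0.62 ± 0.12, and -0.58 ± 0.13 over animals 1, 2 and 5. LUM encodes lumican, a small leucine-rich proteoglycan that binds collagen fibrils. It read 6.26, 7.51, 6.47, 6.70 and 6.55 on the left and 6.42, 8.32, 7.38, 7.0 and 7.69 on the right. Each right array exceeded its partner, animal 2 was the highest on both sides, and the groups overlapped. The difference was -0.67 ± 0.14, and -0.71 ± 0.17 over animals 1, 2 and 5.

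OGN, the proteoglycan osteoglycin, and SLC13A4, a sulfate transporter of the meninges, had larger differences but not in every animal. OGN read 8.26, 8.95, 8.47, 7.58 and 9.18 on the left and 8.16, 10.27, 9.48, 9.31 and 10.56 on the right. Animal 1 read 0.10 higher on the left, and the other 4 read between -1.01 and -1.72. The mean difference of OGN was -1.07 ± 0.22 over 5 animals and -0.87 ± 0.27 over animals 1, 2 and 5. SLC13A4 read 7.93, 8.33, 7.62, 7.12 and 8.27 on the left and 7.87, 9.32, 8.72, 8.95 and 9.59 on the right. Here too animal 1 alone read higher on the left, by 0.06. The mean difference was -1.04 ± 0.22 and, over animals 1, 2 and 5, -0.75 ± 0.24.

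For GJB2 and FBLN5 the 5 left arrays and the 5 right arrays did not overlap, a pattern that 25 probe sets (0.103%) showed with the left lower. GJB2, connexin 26 of gap junctions, read 5.90, 5.81, 5.99, 5.73 and 5.94 on the left and 6.07, 6.23, 6.43, 6.57 and 7.19 on the right. The left arrays were alike, all under the filter level, and the right arrays spread upwards to animal 5. The difference was -0.62 ± 0.14, and -0.61 ± 0.19 over animals 1, 2 and 5. FBLN5, fibulin-5 of elastic fibres, read 6.60, 6.60, 6.55, 6.49 and 6.59 on the left and 6.71, 6.98, 6.88, 6.82 and 7.07 on the right. The left arrays lay within a narrow band and the smallest pair difference was -0.12, in animal 1. The mean was -0.33 ± 0.07, and -0.33 ± 0.11 over animals 1, 2 and 5.

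MPZL2, an immunoglobulin-family adhesion molecule, read 5.95, 6.48, 5.94, 6.02 and 6.28 on the left and 6.17, 6.92, 6.57, 6.70 and 6.94 on the right. The groups overlapped through the left arrays of animals 2 and 5. The difference was -0.53 ± 0.08 (adjusted p = 0.735), and -0.44 ± 0.11 over animals 1, 2 and 5. FRZB, a secreted antagonist of Wnt ligands, differed by -0.53 ± 0.12, from -0.04 in animal 1 to -1.04 in animal 5. PROS1, the anticoagulant protein S, differed by -0.53 ± 0.12, from -0.02 in animal 1 to -1.01 in animal 4. Both therefore rested little on animal 1. KCNJ13, an inward-rectifier potassium channel prominent in choroid plexus, differed by -0.42 ± 0.08.

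Immune genes made up the rest. LYZ, the antibacterial enzyme lysozyme of myeloid cells, differed by -0.32 ± 0.08 and IFITM1, an interferon-induced membrane protein, by -0.32 ± 0.08. MAMU-DQB1, a beta chain of major histocompatibility complex class II, differed by -0.39 ± 0.08, and closely related class II genes could share its probes. Over animals 1, 2 and 5 these 3 differed by -0.36 ± 0.10, -0.39 ± 0.11 and -0.39 ± 0.11 in that order.

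**Figure D3:**
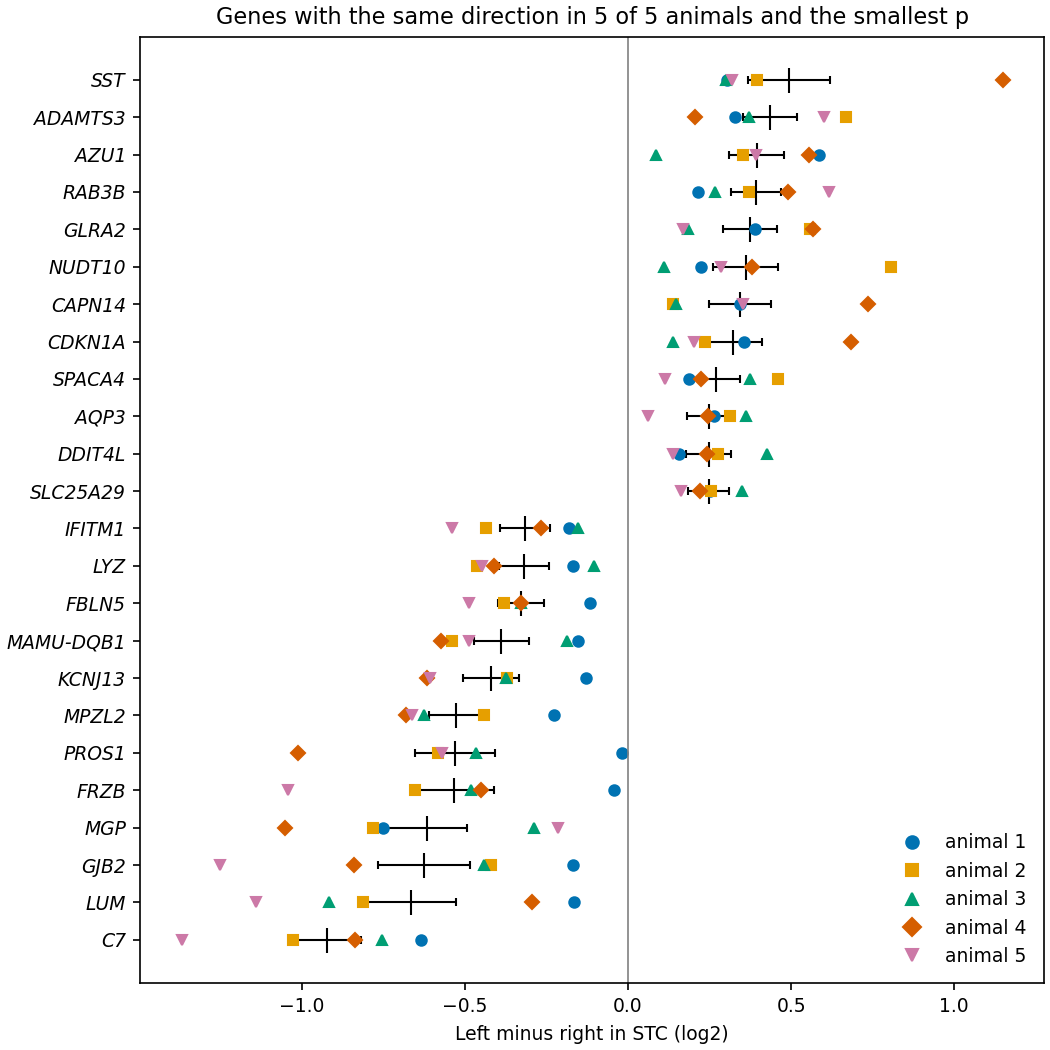
Left minus right difference (log2) in STC for the named genes that were lower or higher on the left in every animal, with a point per animal, a vertical tick for the mean and whiskers for the moderated SE (n = 5). C7 has the largest mean difference among them, -0.92, and SST the largest on the other side, 0.49.

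Among the genes higher on the left in every animal, those with the smallest p were ADAMTS3, RAB3B, AZU1, GLRA2, SLC25A29, SST, SPACA4, CDKN1A, AQP3, CAPN14, NUDT10 and DDIT4L, with mean differences of 0.25 to 0.49. They too were chosen for direction and p. Their adjusted p-values were all 0.999 or above.

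SST, the neuropeptide somatostatin of a large class of inhibitory interneurons, read 10.80, 10.75, 10.58, 10.91 and 10.67 on the left and 10.50, 10.36, 10.28, 9.76 and 10.35 on the right. The groups did not overlap, a pattern that 55 probe sets (0.226%) showed with the left higher, and the right array of animal 4 was the lowest. The difference was 0.49 ± 0.13 over 5 animals. Over animals 1, 2 and 5 it was 0.34 ± 0.09, and animal 4 alone read 1.15.

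ADAMTS3, a protease that trims procollagen and also cleaves reelin, read 7.49, 7.42, 7.25, 7.30 and 7.19 on the left and 7.17, 6.76, 6.88, 7.10 and 6.59 on the right. The groups did not overlap, although the lowest left array, of animal 5, lay only just above the highest right array, of animal 1. The difference was 0.43 ± 0.08, and 0.53 ± 0.10 over animals 1, 2 and 5. RAB3B, a small GTPase that guides vesicle exocytosis, read 9.45, 9.07, 9.14, 9.49 and 8.99 on the left and 9.24, 8.70, 8.87, 9.0 and 8.37 on the right. Each left array exceeded its partner, with overlap between animals. The difference was 0.39 ± 0.08, and 0.40 ± 0.11 over animals 1, 2 and 5.

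GLRA2, the alpha 2 subunit of glycine receptors, read 7.90, 7.96, 7.33, 7.73 and 7.46 on the left and 7.51, 7.40, 7.14, 7.16 and 7.29 on the right. The groups overlapped through the left arrays of animals 3 and 5. The difference was 0.37 ± 0.08, the same over animals 1, 2 and 5, where its SE was 0.11. GLRA2 read higher on the left in VFC and M1C too, by 0.15 and 0.47 over 5 animals. Over animals 1, 2 and 5 it did so by 0.50 in VFC and 0.50 in M1C, so it was not particular to STC. CDKN1A, the cell cycle inhibitor p21, differed by 0.32 ± 0.09 and DDIT4L, an inhibitor of the growth kinase mTOR, by 0.25 ± 0.07.

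The left and right arrays did not overlap for AZU1, NUDT10, SPACA4 and AQP3 either. AZU1, the neutrophil granule protein azurocidin, differed by 0.39 ± 0.08. NUDT10, a phosphohydrolase of inositol pyrophosphates, differed by 0.36 ± 0.10, of which animal 2 read 0.80. SPACA4, a sperm acrosome protein, differed by 0.27 ± 0.07 and AQP3, a water and glycerol channel, by 0.25 ± 0.07. All 4 genes kept their direction over animals 1, 2 and 5, with means of 0.44, 0.44, 0.25 and 0.21.

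Ranked instead by the mean over animals 1, 2 and 5 among genes of 1 direction in these 3 animals, 6 further genes appeared. Higher on the left in all 3 were 1280 genes (11.2%; 10.8% of all tested probe sets) and lower were 875 (7.65%; 9.09% of all tested probe sets). SMIM20, a small membrane protein of mitochondria, read 0.27, 0.58 and 0.48 in animals 1, 2 and 5 but 0.04 and -0.66 in animals 3 and 4. POSTN, the matrix protein periostin, read 0.37, 0.30 and 0.61 in animals 1, 2 and 5 and -0.44 and -0.34 in the others, so its mean fell from 0.43 to 0.10 over all 5. GABRA5, the alpha 5 subunit of GABA-A receptors, was higher on the left in every animal, by 0.31 ± 0.10, with 0.78 in animal 2 and at most 0.27 elsewhere. OR10G9, an olfactory receptor gene, differed by 0.39 over the 3 animals. MIR618, a microRNA gene, and GABRE, the epsilon subunit of GABA-A receptors, differed by -0.46 and -0.42 over the 3 animals.

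**Figure D4:**
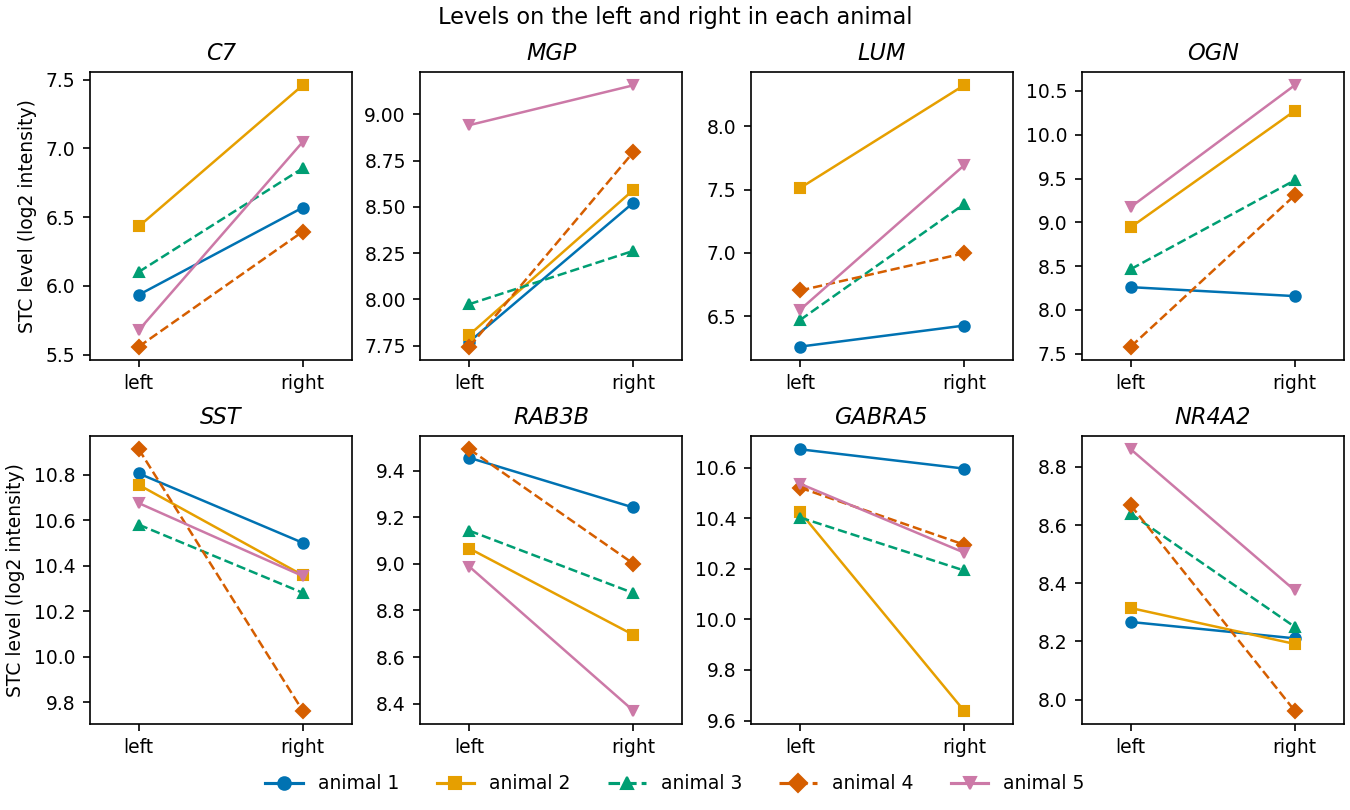
Levels (log2 intensity) of selected genes in left and right STC, with a line joining the hemispheres of each animal and dashed lines for animals 3 and 4. C7, OGN and LUM run upwards from left to right in nearly every pair, OGN being flat in animal 1, and SST runs downwards, most steeply in animal 4.

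Grouped by cell type and function, the tested genes were described in 26 lists, 24 of which had at least 3 tested members. No member of any list was called. The lists are therefore described by their median difference beside the median over all 11443 genes, which was -0.001 over 5 animals and 0.011 over animals 1, 2 and 5. Among all genes 233 (2.04%) had an unadjusted p under 0.05 and read higher on the left, and 220 (1.92%) had it and read lower.

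Markers of meningeal fibroblasts had the lowest median of the 24 lists. Of 27 listed genes 20 were tested, 3 lay below the filter and 4 were not found by symbol. Their median difference was -0.24 over 5 animals and -0.29 over animals 1, 2 and 5, and 19 of the 20 had a mean below 0, where 50.6% of all genes did (49.4% lay above 0). An unadjusted p under 0.05 was found for 9 of them, all lower on the left: MGP, OGN, LUM, SLC13A4, GJB2, DCN, SLC6A13, SLC6A20 and FOXC1. DCN, the collagen-binding proteoglycan decorin, differed by -0.58 ± 0.13. The membrane transporters SLC6A20 and SLC6A13 differed by -0.49 ± 0.17 and -0.29 ± 0.09, and the transcription factor FOXC1, needed for meningeal development, by -0.26 ± 0.10. The fibrillar collagens differed less, with COL1A1 at -0.15 ± 0.09, COL3A1 at -0.14 ± 0.07 and COL1A2 at -0.09 ± 0.08. Over animals 1, 2 and 5 the differences were -0.32 for SLC6A20, -0.28 for COL1A1 and -0.20 for COL1A2.

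By animal the median difference of the meningeal markers was 0.01, -0.44, -0.15, -0.34 and -0.37. Animal 1 lay near 0 and the other 4 animals read lower on the left. The mean level of the 20 markers ranged from 7.05 to 7.40 over the left arrays and from 7.18 to 7.90 over the right arrays. In animals 1, 2 and 5 the median of these markers was 0.33 higher in STC than in M1C, opposite in sign to the left minus right median of -0.34 in animal 4, whose right array read like M1C. In VFC and M1C the left minus right median of the same markers was -0.04 and 0.04 over 5 animals, and -0.09 and 0.13 over animals 1, 2 and 5. These markers moved with the comparison, and their part in the other differences was not tested.

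Of 13 tested endothelial genes 10 had a mean below 0. Their median was -0.12 over 5 animals and -0.12 over animals 1, 2 and 5. By animal it was 0.006, -0.21, -0.003, -0.21 and -0.08, thus near 0 in animals 1 and 3. The endothelial median lay below 0 in the other regions too, at -0.08 in VFC and -0.11 in M1C over 5 animals, and at -0.13 and -0.09 over animals 1, 2 and 5. An unadjusted p under 0.05 was found for 3 of them, all lower on the left: SLCO1A2, an organic anion transporter of the blood-brain barrier, differed by -0.29 ± 0.07, ITM2A by -0.25 ± 0.11 (-0.16 over animals 1, 2 and 5) and the TGF-beta co-receptor ENG by -0.19 ± 0.08. Of 9 microglial genes 2 did so, HAVCR2, the inhibitory receptor TIM-3, by -0.31 ± 0.08 and CD74, the invariant chain of class II, by -0.23 ± 0.08. The microglial median was -0.03, with 4 of the 9 means above 0, and it was -0.14 over animals 1, 2 and 5 and 0.004 without animal 1. The microglial identity gene CX3CR1, a chemokine receptor, read higher on the left at 0.13 ± 0.10. The 6 choroid plexus genes had a median of -0.04, and by animal it was -0.01, -0.26, -0.05, -0.0006 and -0.28, thus near 0 in animals 1 and 4. Among these genes KCNJ13 alone passed an unadjusted p of 0.05. TTR, the defining thyroid hormone carrier of choroid plexus, differed by -0.04 ± 0.13, and by -0.20 ± 0.12 over animals 1, 2 and 5. The mural cell list of 5 genes had a median of -0.03, and 2 of its means lay above 0, the highest at 0.01. By animal its median was -0.17, 0.07, 0.09, -0.18 and -0.06. In this list TAGLN, an actin-binding protein of smooth muscle, differed by -0.26 ± 0.09. ABCC9, a subunit of pericyte potassium channels, differed by -0.19 ± 0.07 and RGS5, a pericyte marker, by -0.03 ± 0.08.

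Deep-layer neuron markers had the highest median of the 24 lists and were the single list whose median lay above 0 in 5 of 5 animals. The median over 15 tested genes was 0.19 over 5 animals and 0.15 over animals 1, 2 and 5, and by animal it was 0.06, 0.12, 0.07, 0.31 and 0.24. The left minus right median of this list lay above 0 in the other regions too, at 0.05 in VFC and 0.12 in M1C over 5 animals, and at 0.09 and 0.01 over animals 1, 2 and 5. An unadjusted p under 0.05 was found for 7 of them, all higher on the left: NR4A2, TSHZ2, CRYM, FEZF2, ADRA2A, SYT6 and RXFP1. FEZF2, the transcription factor that specifies subcortically projecting neurons, read 7.99, 7.61, 7.57, 7.98 and 8.08 on the left and 7.94, 7.49, 7.42, 7.79 and 7.52 on the right. Each left array exceeded its partner, by little except in animal 5, and the groups overlapped. Its difference was 0.22 ± 0.08, and 0.25 ± 0.12 over animals 1, 2 and 5.

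NR4A2, a nuclear receptor that marks deep-layer neurons and also responds to activity, read 8.27, 8.31, 8.64, 8.67 and 8.86 on the left and 8.21, 8.19, 8.25, 7.96 and 8.38 on the right. The difference was 0.06 and 0.12 in animals 1 and 2 and between 0.39 and 0.71 in the others, with a mean of 0.35 ± 0.10 over all 5 and 0.22 ± 0.11 over animals 1, 2 and 5. The zinc finger gene TSHZ2 differed by 0.26 ± 0.08 and CRYM, a thyroid hormone-binding protein, by 0.23 ± 0.08. Other deep-layer genes did not read higher on the left: FOXP2, a transcription factor of layer 6 neurons, differed by -0.06 ± 0.13, and BCL11B, which acts downstream of FEZF2, by -0.01 ± 0.09. The median of the deep-layer list was 0.13 higher in STC than in M1C in animals 1, 2 and 5, and its left minus right median was 0.13 to 0.19 with any single animal left out. Upper-layer and layer 4 genes (8 tested) had a median of 0.02, with 0.42 in animal 4 alone, where the layer 4 regulator RORB read 10.03 on the left and 9.15 on the right.

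**Figure D5:**
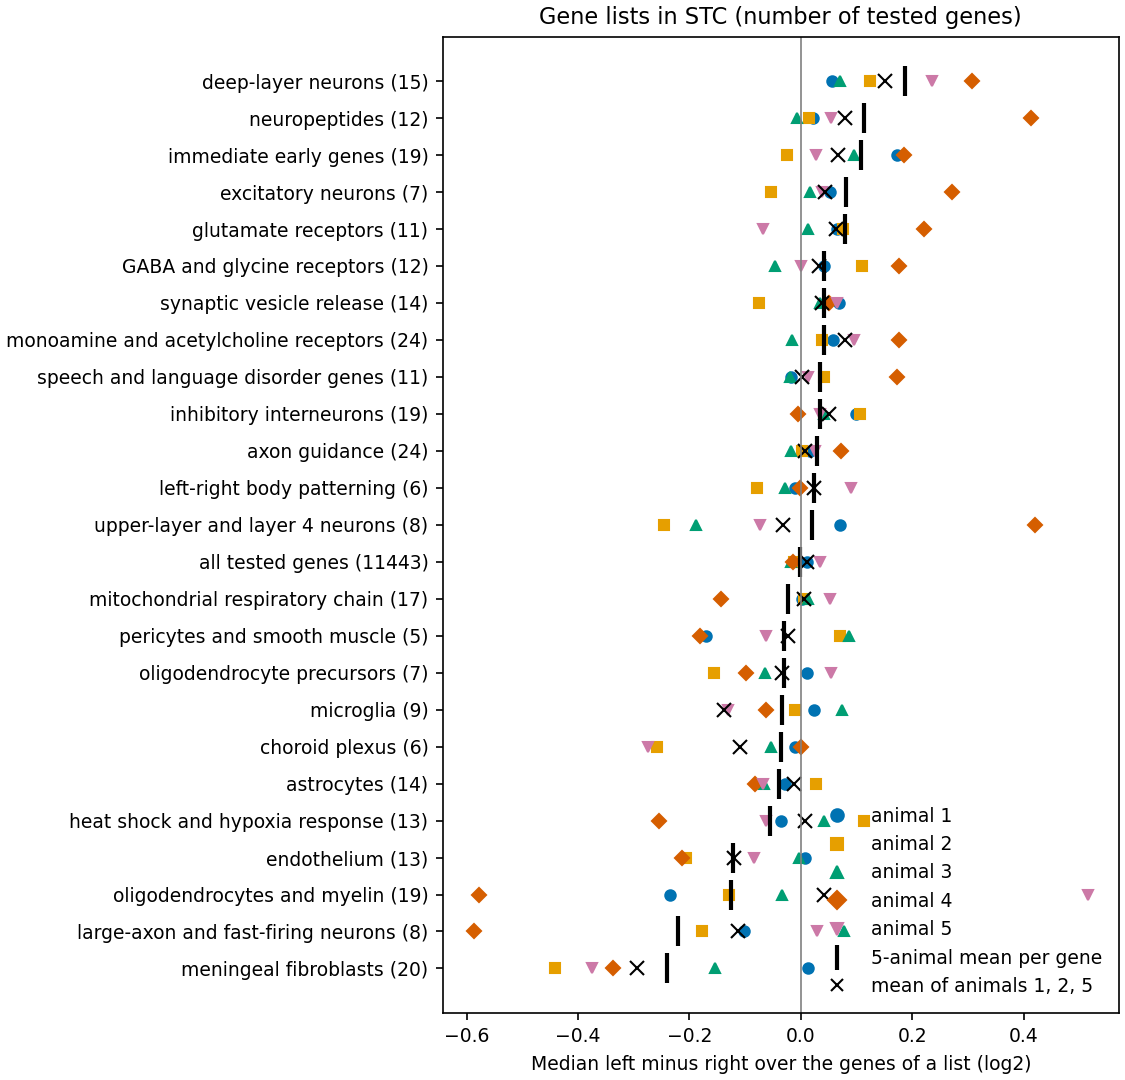
Median left minus right difference (log2) in STC over the tested members of each gene list and over all tested genes, with a point for each animal. A vertical bar marks the median of the genes' 5-animal means, and a cross the median of their means over animals 1, 2 and 5. Meningeal fibroblast markers have the lowest median, -0.24, and deep-layer neuron markers the highest, 0.19.

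Immediate early genes, which neurons switch on within minutes of activity, had a median of 0.11 over 19 tested genes, and 16 of the 19 had a mean above 0. Over animals 1, 2 and 5 the median was 0.07, and without animal 4 it was 0.05. An unadjusted p under 0.05 was found for 4 of them, all higher on the left. FOS, part of the AP-1 transcription factor, read 7.08, 6.58, 7.05, 6.71 and 7.13 on the left and 6.92, 5.81, 6.71, 6.67 and 6.95 on the right. Animal 2 was the lowest in both hemispheres and had the largest difference, 0.77, and the mean was 0.30 ± 0.10. NPAS4, an activity-dependent factor of neurons, differed by 0.22 ± 0.07 in the same direction in 5 of 5 animals. EGR2 differed by 0.34 ± 0.13, of which animal 4 read 0.99 and the others at most 0.31, with 0.20 over animals 1, 2 and 5, and ARC, a synaptic plasticity protein, by 0.20 ± 0.08.

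Interneuron genes gave a median of 0.03 over 19 tested genes, and 3 had an unadjusted p under 0.05, all higher on the left. Beside SST these were NPY, neuropeptide Y of a subset of the same cells, at 0.23 ± 0.09, and DLX1, a homeobox regulator of interneurons, at 0.17 ± 0.06. DLX1 was higher on the left in every animal, and NPY in 4. Neuropeptide precursors as a list had a median of 0.11, which was 0.05 without animal 4. Excitatory neuron genes (7 tested) had a median of 0.08, with all 7 means above 0. It was 0.03 without animal 4, whose own median was 0.27, and 0.04 over animals 1, 2 and 5. NRGN differed by 0.16 ± 0.07, and by 0.10 ± 0.09 over animals 1, 2 and 5.

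Myelin and large-axon genes differed most in the pair of animal 4. The median over 19 oligodendrocyte and myelin genes was -0.12, but by animal it was -0.24, -0.13, -0.03, -0.58 and 0.52, and over animals 1, 2 and 5 it was 0.04. Animals 4 and 5 read in opposite directions, and none of the 19 had an unadjusted p under 0.05. MAG, a glycoprotein of the inner myelin layer, differed by -0.21 ± 0.16, and by -0.04 ± 0.18 over animals 1, 2 and 5. The 8 large-axon and fast-firing genes had a median of -0.22, which was -0.06 without animal 4. In animals 1, 2 and 5 the STC minus M1C median of these 8 genes was -0.61, and the left minus right median in animal 4 was -0.59. KCNA1 and KCNA2, potassium channel subunits of axons, had an unadjusted p under 0.05 and differed by -0.27 ± 0.10 and -0.19 ± 0.07. Over animals 1, 2 and 5 they differed by -0.13 ± 0.11 and -0.16 ± 0.09.

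Genes of synaptic transmission had medians somewhat above that of all genes, which was -0.001. The medians were 0.08 for 11 glutamate receptor genes, 0.04 for 12 GABA and glycine receptor genes, 0.04 for 24 monoamine and acetylcholine receptor genes and 0.04 for 14 genes of vesicle release. Of the glutamate receptor genes GRIA1, an AMPA receptor subunit, differed by 0.17 ± 0.07, GRIK1, a kainate receptor subunit, by 0.23 ± 0.10 and GRIN2C, an NMDA receptor subunit, by -0.20 ± 0.08. For GRIK1 the difference was 0.14 without animal 4 and 0.09 over animals 1, 2 and 5, and the median of the glutamate receptor genes was 0.005 without animal 4. The serotonin receptor gene HTR2C read 0.42 to 0.52 higher on the left in animals 3, 4 and 5, but -0.13 and 0.04 in animals 1 and 2. SYN1 differed by 0.15 ± 0.06 in the same direction in 5 of 5 animals, and SYT10, a calcium sensor of peptide release, by 0.46 ± 0.15, of which animal 4 read 1.17 and without which the mean was 0.29. Respiratory chain genes (17 tested) had a median of -0.02, astrocyte genes (14) of -0.04 and heat shock and hypoxia genes (13) of -0.05. Axon guidance genes (24) had a median of 0.03, and none of them had an unadjusted p under 0.05.

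Genes tied to brain and body asymmetry were examined for their own sake. LMO4, a LIM-domain transcription cofactor, and NEUROD6, a transcription factor of excitatory neurons, are the tested members of a set described as asymmetric in human fetal cortex around the lateral fissure. LMO4 read 11.00, 11.06, 10.93, 11.00 and 10.92 on the left and 11.04, 10.86, 11.13, 11.14 and 10.88 on the right. The groups overlapped, with 2 animals higher and 3 lower on the left, and the difference was -0.03 ± 0.08 over 5 animals and 0.07 ± 0.10 over animals 1, 2 and 5. NEUROD6 read 8.51, 8.50, 8.44, 8.44 and 8.38 on the left and 8.59, 7.34, 8.23, 8.12 and 8.24 on the right. The right array of animal 2 stood low by itself, and the mean difference of 0.35 ± 0.16 rested largely on that animal, which read 1.16.

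Of the genes that set left and right in the body plan, 6 of 18 were tested, with a median of 0.02. PKD2, a calcium channel of cilia, was lower on the left in every animal, by -0.19 ± 0.07, and FOXJ1, the regulator of motile cilia, and GDF1, a ligand of the nodal pathway, differed by 0.09 ± 0.06 and 0.09 ± 0.08. Among 11 tested genes linked to speech and language disorders the median was 0.03 over 5 animals and 0.002 over animals 1, 2 and 5, and none had an unadjusted p under 0.05. CNTNAP2, a neurexin-like adhesion protein, differed by 0.03 ± 0.07, and FOXP1, a relative of FOXP2, by 0.17 ± 0.09, with 0.07 over animals 1, 2 and 5. FOXP2 read 7.12, 7.14, 7.08, 7.19 and 7.26 on the left and 7.38, 7.51, 7.32, 6.63 and 7.25 on the right. It read lower on the left in animals 1, 2 and 3, nearly level in animal 5 and 0.56 higher in animal 4, whose right array is in doubt, and over animals 1, 2 and 5 it differed by -0.21 ± 0.11.

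Whether a left minus right difference in STC departed from that in the other regions was tested within animals, as the STC difference minus the mean of the VFC and M1C differences. The 5-animal values include the VFC left array of animal 4 and the M1C left array of animal 3, whose labels are in doubt, and the values without animals 3 and 4 leave them out. With limma, 0 of 24292 probe sets (0%) were called over 5 animals, 767 (3.16%) had an unadjusted p under 0.05, and the smallest adjusted p was 0.513. Without animals 3 and 4 there were 0 calls and 897 probe sets at an unadjusted p under 0.05. The 5 genes with the smallest p were CD38, MGP, CLEC11A, SPACA4 and SOD3. CD38, an enzyme that consumes NAD, differed by -0.28 ± 0.17 in STC, 0.17 in VFC and 0.39 in M1C. The difference between regions was -0.57 ± 0.10 (adjusted p = 0.926) over 5 animals and -0.50 without animals 3 and 4.

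MGP differed by -0.62 in STC, 0.01 in VFC (SD 0.71) and -0.03 in M1C (SD 0.42). C7 differed by -0.92 in STC, -0.19 in VFC (SD 1.02) and 0.32 in M1C (SD 0.69), and OGN by -1.07 in STC, -0.19 in VFC (SD 1.12) and 0.30 in M1C (SD 0.97). The SDs show that the differences in VFC and M1C varied widely between animals. Over animals 1, 2 and 5 the VFC differences of C7 and OGN were -0.60 and -0.61, lower on the left as in STC, where these animals gave -1.01 and -0.87. Over the same animals MGP differed by -0.09 in VFC. The differences between regions were -0.61 ± 0.12 for MGP, -0.99 ± 0.27 for C7 and -1.12 ± 0.34 for OGN, and none passed the adjustment. SOD3, the extracellular superoxide dismutase, differed by -0.25 in STC, 0.21 in VFC and 0.06 in M1C. For SST the 3 regions read alike in direction, with 0.49, 0.13 and 0.13, and NR4A2 read 0.35, 0.39 and 0.63, so neither read higher on the left in STC alone.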

How the data were processed

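The deposited values were on a log2 scale and came from RMA in the oligo package, per the submitters' processing notes; versions, and whether other arrays were normalized with these 30, are not given in the sources used here. The array values covered 40489 probe sets, and the array medians lay between 6.57 and 6.64. Platform annotation gave 16020 probe sets 1 symbol and 490 several; 23979 were not listed and stay unnamed. An Entrez number stood beside 15045 of the single symbols; the reference held 14947 of these and changed 0 symbols. Control probe sets are not marked and could not be left out. No genome build is named, so no coordinates are given.

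Probe sets with a mean over 30 arrays above the 40th percentile (6.04) were tested: 24292, of which 11733 had 1 symbol, for 11443 genes. For each gene the probe set with the highest mean was used. The 5 within-animal differences were fitted with limma 3.58.1 in R 4.3.3 (with the data.table package, version 1.17.8), intercept only, with eBayes and Benjamini-Hochberg adjustment over all tested probe sets at 0.05; n = 5 animals. The same number marks the same animal in both hemispheres, per the labels, so pairing is part of the design. The test was tried on simulated data, in which 200 probe sets were shifted. The noise was normal and independent between probe sets, with the SD of each probe set over the differences of all 5 animals. The runs with 3 pairs used the same SDs, which include the doubtful pairs of animals 3 and 4. Of those shifted by 0.5 on the log2 scale, 56% were recovered with 5 pairs and 0% with 3 pairs. Of those shifted by 1, 94.5% and 65.5% were recovered. As far as these SDs apply to animals 1, 2 and 5, the 0 calls over them say little about differences of that smaller size.

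Named genes were up to 12 higher and 12 lower with the smallest p among those of 1 direction in 5 of 5 animals, up to 8 each way by the mean over animals 1, 2 and 5, up to 4 per list by p, both fetal asymmetry genes, FOXP2 and CNTNAP2, the 5 with the smallest p against the other regions, and the array check's genes. DCN, SLC6A13, SLC6A20, FOXC1, COL1A1, COL3A1, COL1A2, BCL11B, SYT6 and RXFP1 were added after their values were seen. Alternatives were no block, other filters, centring, quantile normalization, priors, array weights, a spread shared over 15 differences and leaving animals out; counting identical probe sets once was added after seeing the data. The comparison, its genes and its lists were chosen with earlier results of these data known.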

Additional observations from a re-analysis of the deposited data

Results flagged for a closer look

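Of 231 groups of 5 values examined, 16 held a value whose gap to the nearest of the other 4 exceeded Dixon's 95% limit of 0.71 of the range; chance marks about 1 in 20 groups. Of these, 6 lay in animal 4, whose right array is in doubt, 5 in animal 2 and 5 in other animals.

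In animal 4, the left minus right difference stood apart for SST (1.15, others 0.30 to 0.40), EGR2 (0.99, others 0.10 to 0.31) and SCG2, a secretogranin of dense-core vesicles (0.42, others 0.10 to 0.19). GRIK1 read 8.32 on its right array, against 8.81 to 8.99 on the others. The median difference of its neuropeptide genes was 0.41 (others -0.01 to 0.05), and that of its respiratory chain genes was -0.14 (others 0.001 to 0.05).

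In animal 2, the difference stood apart for GABRA5 (0.78, others 0.08 to 0.27) and MIR618 (-0.84, others -0.31 to -0.10). MIR618 read 7.11 on its right array, against 6.28 to 6.47 on the others. FOS read 5.81 on that array, against 6.67 to 6.95. The median of its vesicle release genes was -0.075, against 0.03 to 0.07 elsewhere.

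In animal 1, PROS1 read 6.5 on the right array (others 7.25 to 7.52), IFITM1 8.69 on the left (others 9.14 to 9.32) and CD74 7.13 on the left (others 7.59 to 7.66). In animal 5, MGP read 8.94 on the left (others 7.75 to 7.98), and FEZF2 had a difference of 0.56 (others 0.06 to 0.19).

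SPACA4 was higher on the left in each of 5 animals in STC (mean 0.27) and lower in 5 of 5 in VFC (mean -0.37). Its level was low, with a right STC mean of 6.02, just under the filter level. The VFC values include the left array of animal 4, whose label is in doubt; over animals 1, 2 and 5 the VFC mean was -0.43. STC against VFC alone was not tested; against both other regions the difference was 0.45 ± 0.09 and did not pass the adjustment.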

How the results depend on the processing

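The 0 calls for left against right STC held under every alternative listed in the methods, with 630 to 1878 probe sets at an unadjusted p under 0.05 and smallest adjusted p-values of 0.0521 to 1.00. Without the replicate block that pairs the hemispheres, 0 probe sets were called, 642 had an unadjusted p under 0.05 and the smallest adjusted p was 1.00, so the pairing changed no call but moved that count from 1076. Leaving out each animal gave 0 calls and 927 to 1333 probe sets at an unadjusted p under 0.05; the lowest adjusted p, 0.0521, was that of OGN without animal 1. Without a filter on low values 1878 of 40489 probe sets had an unadjusted p under 0.05, and with a 60th percentile filter 630 of 16196, where the number tested differs. STC against the other regions gave 0 calls under its alternatives, with 742 to 1649 probe sets at an unadjusted p under 0.05. Many named genes were chosen for 1 direction in every animal, and leaving animals out cannot reverse the mean of such a gene. The choice thus largely fixed the next count in advance, and the count supports nothing further. Of 1071 values of 69 named genes under alternatives, 1067 kept their direction. The 4 that reversed were LMO4 without the pairs of animals 3 and 4 (0.065) and, leaving out each animal, LMO4 (-0.087 to 0.014), FOXP2 (-0.21 to 0.018) and POSTN (-0.027 to 0.24); the cause was not tested. The number of animals and the doubtful arrays of animals 3 and 4 limit the comparison; signal over background is not given.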
